A study of Mus musculus with 4 samples.

Results

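The 10 genes described here encode the kinases and checkpoint proteins that carry a cell from G2 through M phase: Cdk1, its activator Cdc25c, the anaphase activator Cdc20, the Aurora kinases Aurka, Aurkb and Aurkc, Plk1, Nek2, and the spindle checkpoint proteins Bub1 and Bub1b. They were picked by gene symbol, and each symbol matched 1 row among the 32285 genes of the count matrix. Levels were read in mouse testis cells labelled Znhit1_KO, taken on postnatal day 35 and prepared with droplet-based 3′ single-cell RNA sequencing. Znhit1 encodes a subunit of the SRCAP complex, which loads the histone variant H2A.Z, and the series asks how its loss affects male germ cells. The series holds 1 library each of Znhit1_KO and CTRL testis at postnatal days 16 and 35. Only the Znhit1_KO library of day 35 was analysed here, so nothing below compares genotypes or ages. The labels give no strain, no Cre driver and no number of animals.

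In a dividing cell, cyclin B and CDK1 form the kinase that starts mitosis, CDC25 phosphatases switch it on, and WEE1 and PKMYT1 hold it off. Aurora A and PLK1 build the spindle poles, Aurora B acts at centromeres, and BUB1 and BUBR1 (the product of Bub1b) delay anaphase until every chromosome is attached, by keeping CDC20 from activating the anaphase-promoting complex. Spermatogonia divide by mitosis. Spermatocytes replicate once, pass through a long meiotic prophase in which homologous chromosomes pair and recombine, and need CDK1 activity again only when they leave pachytene for the first meiotic division.

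The matrix held 15306 barcodes and 72459160 UMIs. After filters on genes, UMIs and mitochondrial share and removal of 235 doublets, 7886 cells remained, with a median of 4616 UMIs, in 21 clusters. The members and all genes of the lists used below were kept out of the clustering, so their levels did not define the clusters. Spermatogonium-like cells numbered 1043, in a Gfra1-high cluster of 185 cells and a Crabp1- and Kit-high cluster of 858 cells, numbered 1 and 2. Early-prophase-like cells numbered 2037, in clusters 1 (747 cells, high in Stra8 and Prdm9), 2 (834 cells, highest in Dmc1) and 3 (456 cells, led by Zfy1 and Zfy2). Pachytene-like cells numbered 757, in cluster 1 (450 cells, with 257 CPM of Ldhc) and cluster 2 (307 cells, with 3577 CPM of Ldhc). A further 558 cells high in Esx1 scored nearest to spermatogonia but too weakly to be named, and are described on their own. Erythrocyte genes were among the leading genes of that cluster (Hbb-bt, Hbb-bs and Hba-a1), with 275 CPM of Hbb-bs against 1.65 and 4.26 CPM in spermatogonium-like clusters 1 and 2. Cenpa, one of the G2/M genes used below to sort cells, and Ube2c, a gene of mitotic exit, were also among its leading genes. The part of either kind of gene in the levels below was not tested. The spermatid and sperm genes Prm1, Prm2 and Tnp1 had 5, 6 and 24 UMIs in all cells together. Znhit1 itself had 335 UMIs, which checks nothing, since the labels do not say which part of the gene was deleted and no control library was read.

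All levels are CPM: each class was treated as 1 pool of cells, and a gene's UMIs were given per 1000000 UMIs of the pool. Intervals in brackets are exact 95% intervals: Poisson for a level, conditional binomial for a ratio and Clopper-Pearson for a share of cells. With 1 library there is no replicate error and no test: the intervals cover counting error only. A member is called higher or lower where its CPM differed at least 2-fold between classes, with at least 20 UMIs over both. CPM of different genes are not compared with each other.

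Across the 3 germ-cell classes the 10 genes did not move as a block. Cdk1, Cdc20, Aurka and Nek2 were 3.64- to 4.52-fold higher in pachytene-like than in spermatogonium-like cells, lowest at meiotic entry, and within 2-fold of the spermatogonium-like level over the whole early-prophase-like class. Of the 3 classes, Aurkb and Plk1 were highest in spermatogonium-like cells, and both fell at meiotic entry. By cluster, Plk1 was highest in the Esx1-high cluster, at 92.0 CPM against 26.1 and 66.5 CPM in the spermatogonium-like clusters. Aurkb over the whole early-prophase-like class, and Plk1 in its cluster 1, fell to levels found in somatic cells. Bub1 alone was higher in early-prophase-like cells than in either of the other classes. Summed over the 10 genes, the 3 classes had 807, 1008 and 1961 CPM from spermatogonium-like to pachytene-like cells.

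**Figure D1:**
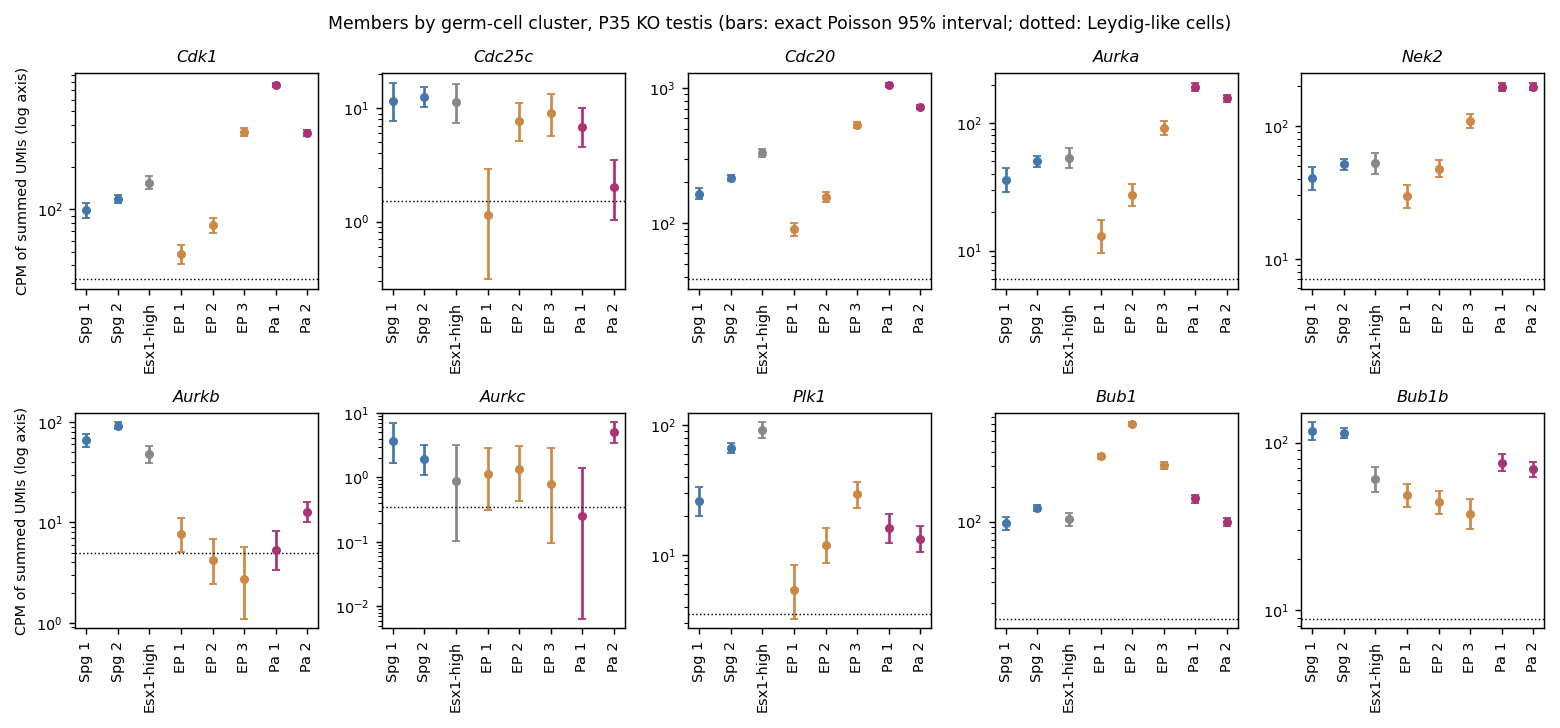
Level of each of the 10 genes in the 8 germ-cell clusters, in CPM of summed UMIs on a log axis, from spermatogonium-like (Spg) over the Esx1-high cluster to early-prophase-like (EP) and pachytene-like (Pa) clusters; bars are exact Poisson 95% intervals and the dotted line is the Leydig-like level. Cdk1, Cdc20, Aurka and Nek2 are lowest in EP 1 and highest in a pachytene-like cluster, with Cdk1 at 353 CPM in EP 3 and 350 CPM in Pa 2, Bub1 is highest in EP 2 at 692 CPM, and Aurkb stays at or under 12.7 CPM in every EP and Pa cluster.

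Relative to spermatogonium-like cells, early-prophase-like cells had 1 member that was higher by 2-fold or more and 5 that were lower by as much, against 13.6% and 30% of the 15515 genes with enough UMIs. The members' median log2 ratio was -0.67, against -0.25 over all these genes. Relative to early-prophase-like cells, pachytene-like cells had 5 members higher and 1 lower, against 19.7% and 27.4% of 14821 genes, with a median log2 ratio of 1.22 against -0.28. Relative to spermatogonium-like cells, pachytene-like cells had 4 members higher and 3 lower, against 19.9% and 39.4% of 15966 genes, with a median log2 ratio of 0.21 against -0.54. The members' share of higher calls stood above the share over all genes in both comparisons of pachytene-like cells, and no set test was made. Relative to the all-gene median of each comparison, the early-prophase-like count of lower members was 3, without Cdc25c and Aurkc.

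**Figure D2:**
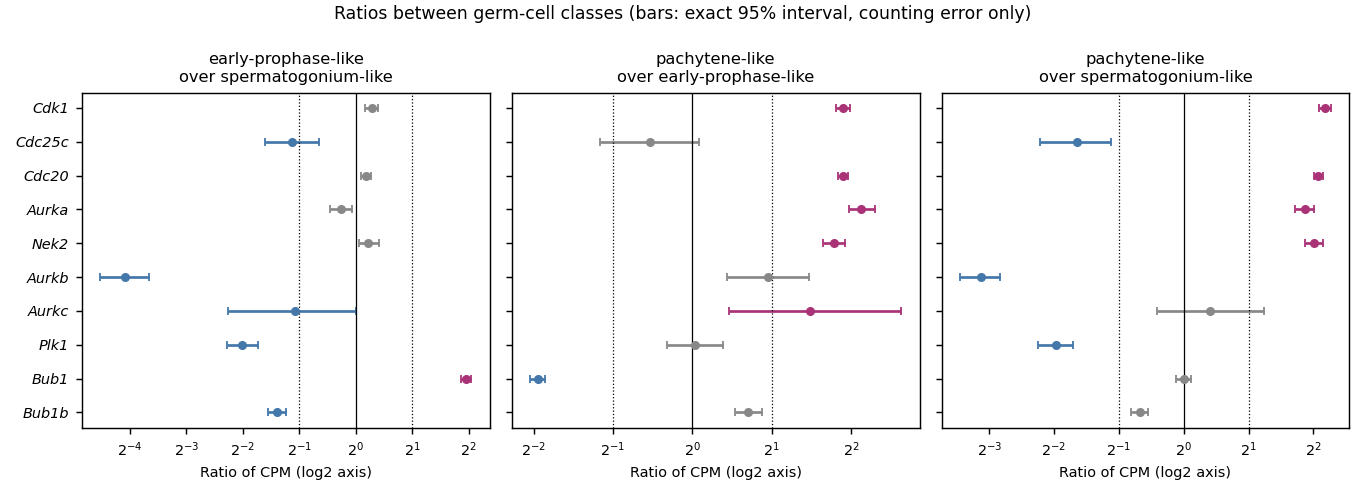
Ratio of CPM between germ-cell classes for each gene on a log2 axis, with exact 95% intervals; purple marks higher and blue lower by 2-fold or more, and grey within 2-fold. Cdk1, Cdc20, Aurka and Nek2 lie between 3.45 and 4.38 in pachytene-like over early-prophase-like cells, while Bub1 is the gene that goes 3.87-fold up at early prophase and 3.86-fold down after it.

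Cdk1 (chr10:69335146-69352938, mm10) encodes the kinase at the centre of the set. It had 98.5 and 118 CPM in spermatogonium-like clusters 1 and 2, 155 CPM in the Esx1-high cluster, 47.9, 77.0 and 353 CPM in early-prophase-like clusters 1 to 3, and 763 and 350 CPM in pachytene-like clusters 1 and 2. The gene was thus lowest at meiotic entry, and the low and high ends differed 15.9-fold. The low end lay between the levels of Leydig-like cells, 31.9 CPM, and Sertoli-like cells, 88.3 CPM, so this ratio is over a level also found in somatic cells. Over whole classes, the level was 113 CPM (107 to 120) for spermatogonium-like, 138 CPM (131 to 146) for early-prophase-like and 513 CPM (499 to 527) for pachytene-like cells. The pachytene-like level was 4.52-fold the spermatogonium-like level (4.24 to 4.82) and 3.71-fold the early-prophase-like level (3.50 to 3.94). The ratio over early-prophase-like cells was smaller in other settings: 1.82, 1.68 and 1.61 under a looser cell filter, a looser mitochondrial limit and fewer variable genes, and 1.45 against early-prophase-like cluster 3 alone. The first 3 settings gave 558, 469 and 445 pachytene-like and 2284, 2496 and 2337 early-prophase-like cells, and what moved the ratio was not tested. Under the same 3 settings the ratio over spermatogonium-like cells was 3.72, 3.81 and 4.16. The largest single step came inside early prophase, 4.58-fold (4.01 to 5.25) in cluster 3 over cluster 2. Pachytene-like cluster 2, the one with high Ldhc, was 2.18-fold lower than cluster 1 (2.06 to 2.31). Cdk1 was among the 10 leading genes of pachytene-like cluster 1, although it had no part in the clustering.

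Cdc20 (chr4:118432901-118437352), the activator of the anaphase-promoting complex, followed the same course. Its level was 165 and 215 CPM in the spermatogonium-like clusters, 330 CPM in the Esx1-high cluster, 90.05, 157 and 530 CPM in the early-prophase-like clusters, and 1059 and 724 CPM in the pachytene-like clusters. It rose 3.73-fold in pachytene-like over early-prophase-like cells (3.56 to 3.91), while early-prophase-like and spermatogonium-like cells differed only 1.13-fold (1.06 to 1.20). The pachytene-like ratio over early-prophase-like cells was 2.20, 2.11 and 2.03 under the same 3 settings and 1.61 against cluster 3 alone.

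Aurka (chr2:172356190-172370535), the spindle-pole Aurora kinase, had 36.0 and 49.96 CPM in the spermatogonium-like clusters, 52.9 CPM in the Esx1-high cluster, 13.0, 27.2 and 91.7 CPM in the early-prophase-like clusters, and 191 and 156 CPM in the pachytene-like clusters. Nek2 (chr1:191821444-191833050), which encodes a kinase that separates centrosomes, was at 40.5 and 51.4 CPM, then 52.5 CPM, then 29.5, 47.7 and 109 CPM, and 196 and 197 CPM in the same order of clusters. Both were higher in pachytene-like cells than in the early-prophase-like class, Aurka 4.38-fold (3.91 to 4.90) and Nek2 3.45-fold (3.13 to 3.79). Against early-prophase-like cluster 3 alone these ratios were 1.85 for Aurka and 1.80 for Nek2, and the lowest under the same 3 settings were 2.25 and 2.44. Unlike Cdk1, Nek2 stayed level between pachytene-like clusters 2 and 1, with a ratio of 1.01 (0.92 to 1.11), and Aurka was at 0.82 of its cluster 1 level (0.74 to 0.90).

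Over the 7 named germ-cell clusters, the log2 CPM of Cdk1, Cdc20, Aurka and Nek2 correlated with one another with Pearson r between 0.96 and 0.99. The points share 1 library and few stages, so this describes a shared profile and carries no p. Bub1 ran opposite to Bub1b, with r of -0.81, and Aurkb ran with Bub1b, with r of 0.91.

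The proximal promoters of these 4 genes are shown because the genes moved together, with those of Plk1 and Bub1, which took other courses, beside them. Each line is the 150 bases before the RefSeq start site in GRCm38.p6, 5′ to 3′ on the gene's strand. Capitals mark CCAAT (or ATTGG, the same box on the other strand), the letters bound by NF-Y, and TTTGAA (or TTCAAA), the letters of the cell cycle homology region bound by the DREAM and MuvB complexes.
Cdk1 (chr10:69352913-69353062, minus strand): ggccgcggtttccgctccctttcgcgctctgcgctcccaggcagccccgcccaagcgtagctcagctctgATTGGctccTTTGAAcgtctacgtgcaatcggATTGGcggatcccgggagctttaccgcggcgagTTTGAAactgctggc
Cdc20 (chr4:118437344-118437493, minus strand): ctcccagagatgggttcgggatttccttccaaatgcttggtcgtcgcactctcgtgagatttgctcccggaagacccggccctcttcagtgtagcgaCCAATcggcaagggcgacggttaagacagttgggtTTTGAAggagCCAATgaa
Aurka (chr2:172370571-172370720, minus strand): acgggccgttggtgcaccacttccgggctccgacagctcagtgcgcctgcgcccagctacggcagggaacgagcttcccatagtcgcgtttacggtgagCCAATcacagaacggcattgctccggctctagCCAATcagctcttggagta
Nek2 (chr1:191821323-191821472, plus strand): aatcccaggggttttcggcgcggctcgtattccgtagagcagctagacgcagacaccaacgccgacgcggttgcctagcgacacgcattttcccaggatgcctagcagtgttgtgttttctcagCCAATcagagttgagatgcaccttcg
Plk1 (chr7:122159285-122159434, plus strand): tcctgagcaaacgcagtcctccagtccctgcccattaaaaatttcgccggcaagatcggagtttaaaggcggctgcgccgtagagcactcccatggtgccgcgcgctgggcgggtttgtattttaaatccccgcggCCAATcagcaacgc
Bub1 (chr2:127831860-127832009, minus strand): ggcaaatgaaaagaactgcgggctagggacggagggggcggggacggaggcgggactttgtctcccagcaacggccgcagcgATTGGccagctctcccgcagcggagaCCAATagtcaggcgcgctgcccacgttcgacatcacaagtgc

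Windows of 300 bases, from 250 before to 50 after the start site, were searched for both motifs on both strands for 8 members; Aurkb and Cdc25c were not included. All 8 windows held CCAAT, against 37.4% of 32851 windows in the RefSeq table, and 5 held TTTGAA, against 17.9%. The motifs do not overlap each other in letters. The 5 genes with both motifs, a combination found in 6.95% of windows, were Cdk1, Cdc20, Aurka, Plk1 and Bub1b. Of these, Cdk1, Cdc20 and Aurka were called higher in pachytene-like cells, and Plk1 and Bub1b were not. Cdk1 had a TTTGAA that begins 15 bases before the start site and Cdc20 had one 18 bases before it. In Aurka, Plk1 and Bub1b the TTTGAA lay after the start site, beginning at base 33, 31 and 41 with the start site as base 1, so it is not in the lines shown. Nek2, which shared the profile of Cdk1, Cdc20 and Aurka, and Bub1, which did not, each held CCAAT 2 times and no TTTGAA. A match of letters is a description and not a bound site.

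Aurkb (chr11:69045647-69051664), the Aurora kinase of the chromosomal passenger complex, had the largest fall between whole classes. It was at 65.8 and 92.3 CPM in the spermatogonium-like clusters and 47.7 CPM in the Esx1-high cluster. In the early-prophase-like clusters it was at 7.65, 4.26 and 2.74 CPM, and in the pachytene-like clusters at 5.37 and 12.7 CPM. Early-prophase-like cells were 16.9-fold lower than spermatogonium-like cells (12.7 to 23.0) and pachytene-like cells 8.77-fold lower (7.102 to 10.9). The early-prophase-like level, 5.08 CPM (3.77 to 6.70), was that of Leydig-like cells, 5.02 CPM (3.63 to 6.76). The other somatic classes of over 200 cells had 3.30 to 8.36 CPM. The early-prophase-like level is thus not read as expression; free RNA in the droplets was not measured. Pachytene-like cells stood slightly above it at 9.81 CPM (7.95 to 11.97), with the higher level in cluster 2, 2.36-fold over cluster 1 (1.44 to 4.04).

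Plk1 (chr7:122159439-122169873), the polo-like kinase of mitotic entry and spindle assembly, was at 26.1 and 66.5 CPM in the spermatogonium-like clusters and 92.0 CPM in the Esx1-high cluster. It fell to 5.38 CPM in early-prophase-like cluster 1, 17.1-fold below the Esx1-high cluster (10.7 to 29.0), the cluster with 275 CPM of Hbb-bs. At that step Plk1 fell more than Aurkb, which was 6.24-fold lower (4.07 to 9.89). It was at 11.99 and 29.4 CPM in early-prophase-like clusters 2 and 3 and at 16.1 and 13.4 CPM in the pachytene-like clusters. Whole early-prophase-like and pachytene-like cells were 4.03- and 3.93-fold lower than spermatogonium-like cells, and differed from each other 1.02-fold (0.80 to 1.30). Plk1 thus did not take part in the pachytene rise of Cdk1 and Aurka. It was also the member that differed most between the spermatogonium-like clusters, 2.55-fold higher (1.96 to 3.37) in the Crabp1- and Kit-high than in the Gfra1-high cluster.

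Aurkc (chr7:6995300-7003091), known as the Aurora kinase of meiotic cells, was the rarest member, with 74 UMIs in all cells. It had 9 and 15 UMIs in the spermatogonium-like clusters, 2 in the Esx1-high cluster, 4, 5 and 2 in the early-prophase-like clusters, and 1 and 30 in the pachytene-like clusters. The count in pachytene-like cluster 2 corresponds to 5.01 CPM, against 0.26 CPM in cluster 1. That cluster holds 30 of the 31 UMIs of the class and has by far the deepest cells, with a median of 15909 UMIs against 7443. The ratio of pachytene-like over early-prophase-like cells was 2.80 (1.37 to 6.18), from 31 and 11 UMIs, but 0.96 when each cell weighed equally. The ratio of early-prophase-like over spermatogonium-like cells, 0.47, had an interval that reached 1.004. At this depth the direction of Aurkc between classes is not settled.

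Cdc25c, on chromosome 18, encodes the phosphatase that removes inhibitory phosphates from CDK1. It was also rare, with 11.6 and 12.7 CPM in the spermatogonium-like clusters, 11.3 CPM in the Esx1-high cluster, 1.13, 7.73 and 9.01 CPM in the early-prophase-like clusters and 6.91 and 2.01 CPM in the pachytene-like clusters. Pachytene-like cells were 3.14-fold lower than spermatogonium-like cells (2.18 to 4.63), from 39 and 126 UMIs, but the ratio was 0.52, within 2-fold, when each cell weighed equally. Like Cdk1, it was lower in pachytene-like cluster 2 than in cluster 1, by 3.45-fold (1.69 to 7.47), but it took no part in the rise of Cdk1 from spermatogonium-like to pachytene-like cells. The Leydig-like level was 1.52 CPM (0.81 to 2.59), which overlaps those of early-prophase-like cluster 1 and pachytene-like cluster 2.

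Bub1 (chr2:127801122-127831865), the checkpoint kinase that also phosphorylates histone H2A at centromeres, peaked in early prophase. It was at 96.8 and 131 CPM in the spermatogonium-like clusters and 105 CPM in the Esx1-high cluster. In the early-prophase-like clusters it was at 365, 692 and 306 CPM, and in the pachytene-like clusters at 158 and 99.6 CPM. Early-prophase-like cells were 3.87-fold higher than spermatogonium-like cells (3.63 to 4.12), and pachytene-like cells 3.86-fold lower than early-prophase-like cells (3.62 to 4.12). Pachytene-like and spermatogonium-like cells were level, at 123 CPM each, with a ratio of 1.002 (0.93 to 1.09). Bub1 was among the 10 leading genes of early-prophase-like cluster 2, together with Ccnb3. That cluster also carried 412 CPM of the erythrocyte gene Hbb-bs, against 6.23 and 5.48 CPM in early-prophase-like clusters 1 and 3, where Bub1 was also above its spermatogonium-like level.

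Bub1b (chr2:118598211-118641591), the BUBR1 gene, did the reverse. It was at 117 and 114 CPM in the spermatogonium-like clusters, 60.3 CPM in the Esx1-high cluster, 48.4, 44.0 and 37.6 CPM in the early-prophase-like clusters and 75.8 and 69.0 CPM in the pachytene-like clusters. Early-prophase-like cells were 2.62-fold lower than spermatogonium-like cells (2.34 to 2.93), and the pachytene-like level of 71.7 CPM was 1.63-fold that of early-prophase-like cells (1.45 to 1.84), within 2-fold. The checkpoint kinase and its pseudokinase relative were thus unequal across the stages, with Bub1 high where Bub1b was low.

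Shares of cells with a UMI were counted at equal depth, with each cell thinned to 2000 UMIs. Cdk1 was found in 19.2%, 18.8% and 60.8% of spermatogonium-like, early-prophase-like and pachytene-like cells, and Cdc20 in 31.9%, 30.4% and 83.3%. Aurkb was found in 15.4%, 1.05% and 1.76%, and Plk1 in 10.7%, 2.49% and 1.76%. The fall of Aurkb and Plk1 and the later rise of Cdk1 and Cdc20 were thus seen in shares of cells as well. Bub1 was found in 21.8%, 55.8% and 22.0%. The shares of Cdc25c, 1.94%, 0.90% and 1.63%, did not follow its CPM, which was lowest in pachytene-like cells, and their intervals overlapped. Aurkc was found in 0 of 1031, 5 of 2006 and 1 of 737 cells, too few to order. In Leydig-like cells, the somatic class with the lowest shares of Cdk1 and Cdc20 among those of over 200 cells, the shares were 5.07% for Cdk1, 7.35% for Cdc20, 0.83% for Aurkb, 0.62% for Plk1 and 1.76% for Bub1. The median depths before thinning were 8448, 4351 and 9707 UMIs in the 3 germ-cell classes and 8792 UMIs in Leydig-like cells, and the unthinned Leydig-like shares of Cdk1 and Cdc20 were 19.6% and 23.5%. In the myoid-pericyte-, macrophage-, stroma- and Sertoli-like classes the thinned shares were 8.06% to 13.8% for Cdk1 and 11.4% to 14.8% for Cdc20. Early-prophase-like cluster 1, with 10.4% (8.29 to 12.8) and 16.2% (13.6 to 19.0), was close to these. The Cdk1 and Cdc20 shares at meiotic entry are thus not read as expression. By CPM, Cdk1 ranged from 31.9 in Leydig-like to 88.3 in Sertoli-like cells.

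**Figure D3:**
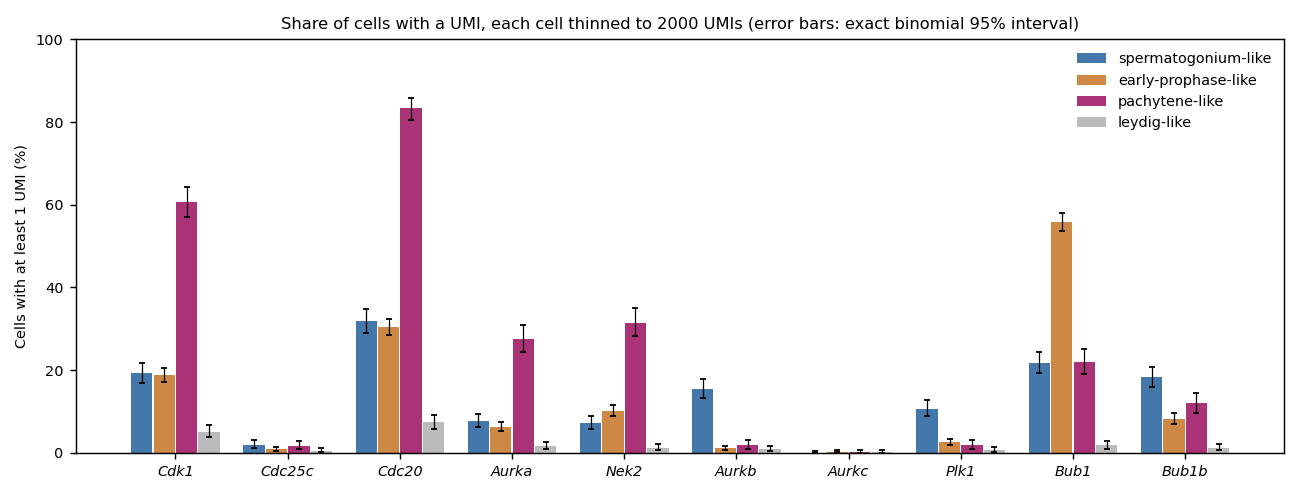
Share of cells with at least 1 UMI of each gene after each cell was thinned to 2000 UMIs, in the 3 germ-cell classes and in Leydig-like cells; error bars are exact binomial 95% intervals. Cdc20 is found in 83.3% of pachytene-like cells and Bub1 in 55.8% of early-prophase-like cells, while Aurkb is above 2% in spermatogonium-like cells only, among these 4 classes.

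Cells of each class were sorted by their UMIs of 40 other G2/M genes (Mki67, Top2a, Cenpf, kinesins and condensins among them), per 2000 UMIs. The list was not highest in spermatogonium-like cells. Its summed level was 4977, 5419 and 4261 CPM in spermatogonium-like, early-prophase-like and pachytene-like cells. In the same order, 455 of 1031, 1141 of 2006 and 291 of 737 cells had 10 or more UMIs of the list. Cells with 10 or more are thus not read as cells in mitosis. Few cells had 0 or 1 such UMI: 19 spermatogonium-like, 2 early-prophase-like and 7 pachytene-like cells. Against these, spermatogonium-like cells with 10 or more had 7 members at least 2-fold higher, against 13.4% of 10863 genes; early-prophase-like cells had 0 of the 3 members that could be called, against 6.15% of 4307 genes; and pachytene-like cells had 4 of 7, against 14.9% of 9013 genes. Of the other early-prophase-like members, 5 had 0 UMIs in the lowest bin and 2 were under the minimum. With 2 and 7 cells in the lowest bin, the counts for early-prophase-like and pachytene-like cells carry little. The lowest bin was therefore widened to 0 to 4 UMIs, a choice made after seeing the data, which gave it 136, 86 and 71 cells in the 3 classes.

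With the wider bin, 4 members were at least 2-fold higher in spermatogonium-like cells with 10 or more UMIs, against 6.85% of 12508 genes. Plk1 had 16.6, 31.7 and 94.2 CPM in cells with 0 to 4, 5 to 9 and 10 or more UMIs, a ratio of 5.67 between the ends (3.76 to 8.95). Aurka had 24.2, 28.0 and 71.9 CPM, a ratio of 2.97 (2.09 to 4.34). Cdk1 had 61.6, 86.8 and 156 CPM, a ratio of 2.53 (2.03 to 3.19), and Cdc20 had 109, 165 and 271 CPM, a ratio of 2.48 (2.10 to 2.94). Plk1 had the largest ratio with either lowest bin. With the bin of 0 to 4 its interval overlapped that of Aurka, and the intervals of Aurka, Cdk1 and Cdc20 overlapped one another. With the bin of 0 or 1 the Plk1 ratio was 9.44 (2.60 to 78.2), from 2 UMIs in that bin. With the lowest bin of 0 or 1 UMI, Nek2, Aurkb and Bub1 were above Aurka, at 6.47, 5.33 and 3.72 against 3.61, from 2 to 8 UMIs in that bin. With the bin of 0 to 4, Bub1, Aurkb, Nek2 and Bub1b had ratios of 1.92, 1.81, 1.69 and 1.59, and Cdc25c had 1.05 (0.61 to 1.89).

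With the bin of 0 to 4, Plk1 also had the largest ratio within each spermatogonium-like cluster. It was 7.86 (3.26 to 22.9) in the Gfra1-high cluster, from 6 UMIs in that bin. In the Crabp1- and Kit-high cluster it was 3.805 (2.38 to 6.49). Aurka had 3.77 and 2.39, the second of these level with Cdc20 at 2.52 and Cdk1 at 2.35. In both clusters the interval of Plk1 overlapped that of Aurka. With the bin of 0 or 1, Aurkb was above Plk1 in the Gfra1-high cluster, at 15.8 against 9.78, from 1 UMI each in that bin. Plk1 remained the largest in the Crabp1- and Kit-high cluster, at 4.47, also from 1 UMI. The contrast of the 0 to 4 bin was wider in the Esx1-high cluster, whose leading genes included erythrocyte genes and also Cenpa and Ube2c. That cluster had 128, 187 and 130 cells in the 3 bins. There Plk1 was at 218 CPM in cells with 10 or more UMIs and 11.4 CPM in cells with 0 to 4, a ratio of 19.0 (8.57 to 52.6), and Aurka at 124 and 7.63 CPM, a ratio of 16.3 (6.16 to 60.9). All 9 members with enough UMIs were at least 2-fold higher there, against 4.94% of 7657 genes. Cells with 10 or more UMIs were deeper in that cluster, with a median of 5493 UMIs against 3501.

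Pachytene-like cells differed from this. Their Aurka level was 179, 168 and 170 CPM over the 3 bins, and Nek2 was at 176, 192 and 210.5 CPM. Cdk1 had 427, 485 and 584 CPM, the ends differing 1.37-fold (1.24 to 1.51), and Cdc20 had 731, 820 and 952 CPM, the ends differing 1.30-fold (1.21 to 1.40). Within pachytene-like clusters 1 and 2 the ratio of Cdk1 was 0.96 (0.81 to 1.14) and 1.001 (0.87 to 1.15), each interval including 1. The ratio of Cdc20 was 0.97 (0.84 to 1.12) and 1.21 (1.097 to 1.33). Cluster 2, the one with lower Cdk1, held 354 of the 509 Cdk1 UMIs of the lowest bin, so the bins and the clusters overlap there. With the wider bin, 0 members were at least 2-fold higher, against 6.87% of 10570 genes. High Cdk1, Cdc20, Aurka and Nek2 in pachytene-like cells were thus found whether or not the cell was rich in the other G2/M genes. The summed level of those genes was 4261 CPM, below the 4977 CPM of spermatogonium-like and the 5419 CPM of early-prophase-like cells.

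In early-prophase-like cells 4 members were at least 2-fold higher with the wider bin, against 6.38% of 10954 genes. These were Bub1 at 2.28 (1.86 to 2.82), Bub1b at 2.92 (1.32 to 8.02), Plk1 at 5.76 (1.01 to 230.4) and Cdc25c at 2.40 (0.40 to 97.5), the last 2 from 1 UMI each in the lowest bin. Cdk1 went the other way, at 0.75 (0.58 to 0.98). Within clusters 1, 2 and 3 its ratio was 0.73 (0.37 to 1.61), 0.55 (0.26 to 1.39) and 0.89 (0.66 to 1.23), each interval including 1. Cluster 3, the one with the highest Cdk1, held 47 of the 64 Cdk1 UMIs of the lowest bin. Of the 86 cells of the lowest bin, 47 were of cluster 1, so the bins and the clusters overlap there. The ratio of Bub1 within clusters 1, 2 and 3 was 2.14, 1.52 and 1.60.

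**Figure D4:**
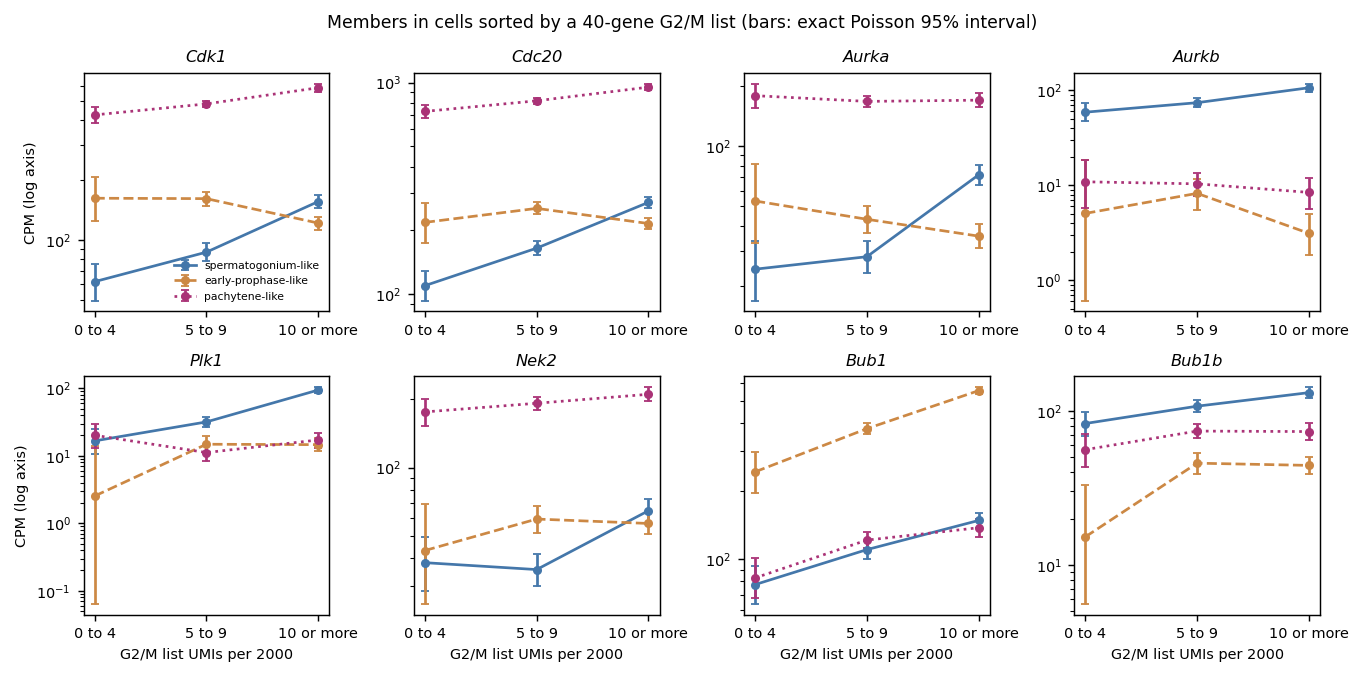
Level of 8 members in CPM on a log axis, in cells with 0 to 4, 5 to 9 and 10 or more UMIs of a 40-gene G2/M list per 2000 UMIs, for the 3 germ-cell classes; bars are exact Poisson 95% intervals. Plk1 and Aurka go up 5.67- and 2.97-fold across the bins in spermatogonium-like cells, while Aurka in pachytene-like cells lies between 168 and 179 CPM in all 3.

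Joint presence in single cells was counted at 2000 UMIs and compared with the product of the shares inside each cluster. Aurka and Plk1 were found together in 16 spermatogonium-like cells, 1.84 times the 8.72 cells that the product gives. Over the pairs with at least 5 cells by the product, the median was 1.16 in spermatogonium-like cells (29 pairs), 0.99 in early-prophase-like cells (22 pairs) and 1.03 in pachytene-like cells (21 pairs). A pairwise excess of at least 1.5 times occurred for 2 pairs, both in spermatogonium-like cells, the other being Bub1b and Nek2 at 1.52 times. In pachytene-like cells the pairs ran from 0.88 to 1.45 times. The highest there was Bub1 and Bub1b, and Bub1b and Nek2 were at 1.41 times, close to the limit. Cells with 5 or more of the 10 genes made up 0.87% of spermatogonium-like, 0.35% of early-prophase-like and 3.93% of pachytene-like cells.

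The regulators of CDK1 were read from a list of 20 genes; the all-gene shares and medians to set beside this and the next 3 lists are those given above for each comparison. In early-prophase-like over spermatogonium-like cells 3 were higher and 8 lower, with a median log2 ratio of -0.49; in pachytene-like over early-prophase-like cells 4 were higher and 6 lower, with a median of -0.60; and in pachytene-like over spermatogonium-like cells 6 were higher and 11 lower, with a median of -1.20. The cyclin partners changed between classes. Ccna2, the S and G2 cyclin, was at 159, 25.9 and 6.27 CPM in spermatogonium-like, early-prophase-like and pachytene-like cells, and Ccnb3, a cyclin of early meiosis, at 14.4, 261 and 44.0 CPM. The B cyclins Ccnb1 and Ccnb2, named after their values were seen, took different courses. Ccnb1 was at 157, 47.7 and 62.7 CPM in the same order, and Ccnb2 at 78.6, 108 and 207 CPM. Of the inhibitory kinases, Pkmyt1 was called higher in pachytene-like cells, while Wee1 was within 2-fold in every comparison. Pkmyt1 was higher in pachytene-like cells, 18.4-fold over the early-prophase-like class (12.7 to 27.8), at 54.3 against 2.95 CPM, and was at 79.7 CPM in pachytene-like cluster 2, where Cdk1 was lower, against 15.4 CPM in cluster 1. Wee1, named after its values were seen, was at 93.4, 75.7 and 51.0 CPM from spermatogonium-like to pachytene-like cells. Hspa2, the testis chaperone that CDK1 activity needs in mouse spermatocytes, was 26.5-fold higher in pachytene-like than in spermatogonium-like cells, at 1437 against 54.1 CPM. Cdc25a, an activating phosphatase like Cdc25c, was lower in pachytene-like cells, 8.21-fold below the early-prophase-like class. Most of this fall came inside early prophase, with 115, 81.8 and 15.3 CPM in early-prophase-like clusters 1 to 3. The pachytene-like clusters had 7.68 and 10.4 CPM. Cks2, a small subunit that binds CDK1, was at 437, 646 and 2775 CPM from spermatogonium-like to pachytene-like cells.

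Among 12 partners of the Aurora and polo kinases, 1 was higher and 3 lower in early-prophase-like over spermatogonium-like cells, 2 higher and 1 lower in pachytene-like over early-prophase-like cells, and 1 higher and 3 lower in pachytene-like over spermatogonium-like cells, with median log2 ratios of -0.23, -0.01 and -0.56. Incenp, the scaffold that activates Aurora B, fell 3.62-fold at early prophase (3.24 to 4.05), to 41.7 CPM in early-prophase-like cells against 151 CPM in spermatogonium-like cells. Cdca8, the borealin subunit of the same complex, did not follow Aurkb, with 216, 257 and 398 CPM in the 3 classes. Haspin, the histone H3 kinase that recruits the complex to centromeres, was 3.70-fold higher in pachytene-like cells than in the early-prophase-like class. This rise lay in pachytene-like cluster 2 alone, at 76.7 CPM. Pachytene-like cluster 1 had 10.2 CPM, below the 10.8, 14.9 and 15.7 CPM of early-prophase-like clusters 1 to 3. The passenger complex was thus uneven: its kinase and scaffold were lower in early-prophase-like cells while borealin was not. Tpx2, which activates Aurora A on the spindle, was 2.02-fold lower in pachytene-like cells than in the early-prophase-like class, where Aurka was higher in the pachytene-like cells. Of the other polo-like kinases, Plk2 was 2.42-fold higher in early-prophase-like and 2.72-fold higher in pachytene-like than in spermatogonium-like cells, and Plk3 fell 5.47-fold in pachytene-like relative to spermatogonium-like cells, from 8 and 45 UMIs.

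Of 17 checkpoint and kinetochore genes, 0 were higher and 3 lower in early-prophase-like over spermatogonium-like cells, 2 higher and 5 lower in pachytene-like over early-prophase-like cells, and 3 higher and 5 lower in pachytene-like over spermatogonium-like cells, with median log2 ratios of 0.10, -0.40 and -0.52. Bub3, which brings BUB1 and BUBR1 to kinetochores, was 5.84-fold higher in pachytene-like cells than in the early-prophase-like class (5.33 to 6.40), so it did not follow Bub1. Nuf2, of the NDC80 complex, was 2.997-fold higher in pachytene-like than in spermatogonium-like cells. Spc25, of the same complex, was 4.56-fold lower in pachytene-like cells than in the early-prophase-like class. Trip13, the ATPase that disassembles checkpoint complexes and also acts on meiotic chromosome axes, was 2.50-fold lower in early-prophase-like cells and 5.40-fold lower in pachytene-like cells, both relative to spermatogonium-like cells.

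Of 19 genes of the anaphase-promoting complex and mitotic exit, 2 were higher and 3 lower, 2 higher and 3 lower, and 1 higher and 5 lower in the same 3 comparisons, with median log2 ratios of -0.23, -0.29 and -0.71. Fbxo5, an inhibitor of the complex, was 14.0-fold lower in pachytene-like cells than in the early-prophase-like class (9.96 to 20.4), where its target's activator Cdc20 was higher. Most of this fall came inside early prophase, with 73.1, 57.0 and 6.66 CPM in early-prophase-like clusters 1 to 3. The pachytene-like clusters had 3.58 and 3.51 CPM. Pttg1, securin, was 3.86-fold higher in pachytene-like cells than in the early-prophase-like class, and Ube2s, the ubiquitin-chain elongating enzyme, 3.78-fold higher than in spermatogonium-like cells. Fzr1, the other activator of the complex, was 2.53-fold lower in early-prophase-like than in spermatogonium-like cells, and Anapc10, a core subunit, was 2.53-fold higher.

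The genes whose profile over the 7 named germ-cell clusters was most like that of each member, among 11954 genes with at least 10 CPM in 1 of them, were mostly outside these lists. They were Mettl6 and Eif4e for Cdk1, Thap4 and Snx32 for Cdc20, Dpy19l1 and Dazap1 for Aurka, and Calm2 and Hyls1 for Nek2. For Aurkb they were Pus1 and Frmd8, for Plk1 Fgfr4 and Gosr1, for Bub1 Hps5 and Aldh1a1, and for Bub1b Pygo2 and Cenpt. Cdc25c was most like Cenpe and Mapk1ip1l, and Aurkc most like Gipc2 and Asnsd1. Pearson r of log2(CPM + 1) lay between 0.967 and 0.997 for these pairs. With 7 points and this many genes, values this high say little of any single pair.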

How the data were processed

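The deposited matrix holds whole UMI counts for each gene and barcode, made by the authors with Cell Ranger 7.1.0 and STAR on mm10, per the submitters' processing notes. How the deposited barcodes were selected is not stated in the labels; the lowest barcode had 500 UMIs. Barcodes with at least 500 genes, 1000 UMIs and at most 10% mitochondrial UMIs were kept (8121), doublets were called with Scrublet in scanpy 1.11.5, and cells were clustered on 3000 variable genes, 30 components and 15 neighbours (Leiden, resolution 1) without X, Y and mitochondrial genes, the members and all lists. Clusters were named from marker lists by the mean log2 ratio to other cells, at least 0.5 with 3 markers at least 2-fold higher; the score minimum, and a minimum of 10 cells per cluster, were set after the clusters were seen. A count of 0 was set to 3 in ratios over all genes. The 4 libraries shared 45 to 81 barcodes per pair. The ratio method was tested on simulated data. The members and lists were chosen with earlier results of these data known. Named list genes are those with the largest change each way per comparison and the highest CPM over the classes, apart from Wee1, Ccnb1 and Ccnb2. Alternatives covered filters, doublets, resolution, variable genes, per-cell means, scaling, thinning and bins. Coordinates are from GENCODE vM21; promoters are from RefSeq.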

Additional observations from a re-analysis of the deposited data

Results flagged for a closer look

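Summed over the 10 genes, a signal was also present in barcodes that no comparison in the main setting used. Part of these barcodes entered the alternative settings with looser filters or doublets kept. The signal was 773 CPM in the 3592 barcodes with under 1000 UMIs and 308 CPM in the 4152 barcodes with over 10% mitochondrial UMIs. It was 791 CPM in the 235 doublets and 855 CPM in the 784 cells of unnamed shallow or small clusters. Leydig-like cells had 117 CPM.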

How the results depend on the processing

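Counts of members called at 2-fold between classes were within 1.5 times their value in most settings. For early-prophase-like over spermatogonium-like cells, the count of higher members was 2 with a filter of 200 genes and 500 UMIs, 2 with a mitochondrial limit of 20%, 3 with 2000 variable genes and 4 with the last early-prophase-like cluster alone, against 1. The count of lower members was 3 with ratios divided by the median ratio and 3 with the last early-prophase-like cluster alone, against 5. For pachytene-like over early-prophase-like cells, the count of lower members was 2 with the same 3 settings of filter, mitochondrial limit and variable genes and 3 with the last early-prophase-like cluster alone, against 1. The count of higher members was 2 with the last cluster alone, against 5. The cause was not tested.

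For the G2/M bins the lowest bin decided the counts. With a bottom bin of 0 to 4, added after seeing the data, they were 4, 4 and 0 in spermatogonium-like, early-prophase-like and pachytene-like cells, against 7, 0 and 4. The pachytene-like count was 1 with doublets kept, 1 with a top bin of 5 or more, 1 with thinning to 1000 UMIs, 0 in pachytene-like cluster 1 and 1 in cluster 2. The early-prophase-like count was 1 with thinning to 1000 UMIs, and the spermatogonium-like count was 3 in spermatogonium-like cluster 2. Directions reversed for Aurkc in pachytene-like over early-prophase-like cells as a mean of per-cell CPM (0.96), for Plk1 between bins of pachytene-like cells with thinning to 1000 UMIs (0.58) and with a bottom bin of 0 to 4 (0.85), and for Cdk1 between bins in pachytene-like cluster 1 (0.89). Pooling the Esx1-high cluster with spermatogonium-like cells left every count between classes within 1.5 times.

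No paired analysis was possible because 1 library was analysed and the groups share no replicates. Depth limits Aurkc and Cdc25c, with 74 and 279 UMIs in all cells used.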
